A study of Caenorhabditis elegans with 2 samples.

Results

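The regions described here are sites on the outer parts of the autosomes of the nematode Caenorhabditis elegans where the nuclear protein LIN-14 was enriched next to the start of genes on a single strand. Each of the 5 autosomes was divided into 3 equal lengths, and the outer lengths are called arms and the middle one the centre. A region was taken when it lay in one of the 10 arms and its summit, the position of its strongest signal, lay between 1000 bp upstream and 200 bp downstream of an annotated 5′ end of a protein-coding gene. Genes with such a window had to lie on one strand only. This left 1289 of the 11115 regions of the data set, chosen by position. Measured scores entered only through the threshold of the list and, where peaks overlapped, through the summit kept. They are called arm promoter regions below and are set against the 1541 regions chosen in the same way from the 5 autosome centres.

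Peak lists from ChIP-seq, in which DNA bound to a precipitated protein is sequenced, were given for 1 group of 2 biological replicates, with no second condition. Per the labels, the strain was an unc-119(tm4063) mutant carrying an inserted lin-14::TY1::EGFP::3xFLAG construct together with a working unc-119(+) copy, and the tagged protein was precipitated with an antibody against GFP. Both samples were whole L1 larvae of pooled sexes, 6 hours old, from a population synchronised by starvation following bleaching, and their chromatin was sheared by sonication. Whole animals mix all tissues, so a region present in few cells cannot be told apart from one weakly occupied in many, and both replicates come from a single transgenic strain.

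Autosomes of this nematode have no single centromere. Their central portions recombine rarely and hold many conserved and broadly expressed genes, while the arms recombine often, hold more repeats and carry most members of large, fast-evolving gene families such as chemoreceptors and F-box genes. LIN-14 is a DNA-binding protein that specifies events of the first larval stage, and its amount falls once the lin-4 microRNA represses it. Many messenger RNAs of this species are trans-spliced, so an annotated 5′ end can lie downstream of the place where transcription began, and genes inside an operon share the promoter of the first gene. Enrichment of LIN-14 beside a gene does not show that the gene depends on it.

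The sequences around the summits of the strongest arm promoter regions on chromosomes II to V show what these sites look like. They reach 50 bp to either side of the summit and are read 5′ to 3′ on the strand of the gene from the RefSeq copy of WBcel235. The window of srh-2 on V, which ranks between those of cox-5A and hsp-1, lies in a 5′ UTR and is not printed. Capitals mark the 6-letter words AGACGC together with GACGCA as well as GAGACG along with GAGAGA and their reverse complements, which were frequent at summits and rare beside them. The peak score, the strength given by the authors' peak caller, follows for the list of both replicates, then for replicate 1 and replicate 2.
The window at rpl-3 (chrIII:3867532-3867632, plus strand) belongs to the highest scoring arm promoter region, with a score of 7747 and replicate scores of 4217 and 3573.
rpl-3: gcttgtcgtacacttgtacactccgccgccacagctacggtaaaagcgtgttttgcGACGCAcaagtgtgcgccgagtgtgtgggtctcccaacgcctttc
The window at cbp-1 (chrIII:9765619-9765719, plus strand) scored 7016, with replicate scores of 4029 and 3015.
cbp-1: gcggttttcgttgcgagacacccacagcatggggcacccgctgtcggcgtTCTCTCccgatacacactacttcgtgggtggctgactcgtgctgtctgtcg
The window at F48G7.4 (chrV:619212-619312, plus strand) scored 6708, with replicate scores of 3756 and 2966.
F48G7.4: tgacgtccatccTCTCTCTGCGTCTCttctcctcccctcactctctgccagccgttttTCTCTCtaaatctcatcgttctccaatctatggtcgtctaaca
The window at cdc-48.1 (chrII:10563515-10563615, minus strand) scored 5859, with replicate scores of 3257 and 2636, and holds none of the marked words.
cdc-48.1: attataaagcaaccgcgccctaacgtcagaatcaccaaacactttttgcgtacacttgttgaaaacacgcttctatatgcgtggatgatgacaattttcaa
The window at ntl-2 (chrII:4376847-4376947, minus strand) scored 4897, with replicate scores of 2625 and 2299, and holds none either.
ntl-2: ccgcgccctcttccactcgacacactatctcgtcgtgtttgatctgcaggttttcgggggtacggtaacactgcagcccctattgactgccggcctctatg
The window at cox-5A (chrIII:12905161-12905261, plus strand) scored 4600, with replicate scores of 2527 and 2084.
cox-5A: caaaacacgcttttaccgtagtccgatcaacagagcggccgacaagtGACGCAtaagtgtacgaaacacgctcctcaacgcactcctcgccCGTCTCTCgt
The window at hsp-1 (chrIV:17278515-17278615, plus strand) scored 4461, with replicate scores of 2232 and 2258.
hsp-1: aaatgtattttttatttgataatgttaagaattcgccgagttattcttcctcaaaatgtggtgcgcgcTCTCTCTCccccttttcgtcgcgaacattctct

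Several of these words overlap in one 8-letter word, GAGACGCA or its reverse complement TGCGTCTC, which was picked after the frequencies of 6-letter words had been seen. The next windows are shown because they are among the highest scoring ones that hold it, and their genes were chosen for that after their values were seen. F48G7.4, printed above, holds it too.
W06H8.6 (chrV:6227716-6227816, minus strand) scored 3837, with replicate scores of 2118 and 1713.
W06H8.6: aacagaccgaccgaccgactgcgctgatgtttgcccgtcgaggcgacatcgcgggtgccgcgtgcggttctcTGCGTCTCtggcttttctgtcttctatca
The window of tbc-14 (chrII:13447820-13447920, minus strand), which encodes a protein with a Rab GTPase-activating domain, scored 3106, with replicate scores of 1776 and 1345.
tbc-14: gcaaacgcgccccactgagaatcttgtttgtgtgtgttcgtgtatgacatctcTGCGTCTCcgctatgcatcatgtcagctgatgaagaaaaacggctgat
The window of gmeb-1 (chrII:18976-19076, plus strand) scored 2770, with replicate scores of 1637 and 1131.
gmeb-1: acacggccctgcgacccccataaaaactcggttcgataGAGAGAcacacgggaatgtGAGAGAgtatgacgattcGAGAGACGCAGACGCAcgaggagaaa
The window of sti-1 (chrV:773402-773502, plus strand), whose product is a co-chaperone of Hsp90, scored 2554, with replicate scores of 1365 and 1203.
sti-1: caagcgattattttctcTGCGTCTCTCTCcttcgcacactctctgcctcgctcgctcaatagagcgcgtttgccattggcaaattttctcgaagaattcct

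Arm promoter regions were sparser than their counterparts in the centres by more than the difference in gene density. The arms covered 55.04 Mb with 10672 protein-coding genes, or 194 genes per Mb, and the centres 27.5 Mb with 6570 genes, or 239 per Mb. The arms therefore had 0.812 times the gene density of the centres (95% exact interval 0.788 to 0.838). There were 23.4 arm promoter regions per Mb, against 56.0 per Mb in the centres, a ratio of 0.418 (0.388 to 0.451). Counted per 1000 genes there were 121 in the arms and 234.6 in the centres, a ratio of 0.515 (0.478 to 0.555). Counted per Mb of sequence that lies in windows of one strand only, the sequence in which such a region can fall, there were 100.99 in the arms and 207 in the centres, a ratio of 0.489 (0.454 to 0.527). Of the arm genes, 1142 held an arm promoter region (10.7%, interval 10.1 to 11.3%), while 1306 of the centre genes held one (19.9%, 18.9 to 20.9%). All of these intervals cover counting error only and treat regions and genes as independent.

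Both replicates gave nearly the same picture when each list was used alone. With as many of its highest scoring peaks as the joint list holds, replicate 1 gave 1347 arm promoter regions and a ratio per gene of 0.535. Replicate 2 gave 1303 and a ratio per gene of 0.520. The ratio was below 1 on every autosome. Per gene it was 0.528 on I, 0.497 on II, 0.651 on III, 0.524 on IV and 0.436 on V, the lowest.

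The lower density was not confined to promoter windows. Regions outside any window occurred at 45.6 per Mb in the arms and 82.1 per Mb in the centres (ratio 0.555, 0.524 to 0.588). Regions in windows of both strands stood at a ratio of 0.410 per Mb (0.351 to 0.480). Both ratios are per Mb of the whole arms and centres, which differ in how much of each kind of sequence they hold. Per Mb of windows of both strands there were 226 regions in the arms and 401 in the centres. Per Mb of sequence outside any window there were 61.3 and 118. Arm promoter regions were 31.5% of the 4096 regions in the arms (30.0 to 32.9%), against 37.0% of 4164 in the centres (35.5 to 38.5%). Repeat-masked bases made up 41.0% of the arms and 28.3% of the centres, and 38.9% of the one-sided windows in the arms against 28.9% in the centres. Within 50 bp of the summits the masked share was 20.4% in the arms and 17.3% in the centres. Whether repeats, where short reads can be hard to place, had a part in the lower density was not tested.

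The 10 arms differed among themselves. The right arm of II had the most arm promoter regions, 191, and the highest density per 1000 genes, 200.8, close to the lowest centre (204, on IV). The right arm of V had the lowest, 73.1 per 1000 genes, although its 235.4 genes per Mb put it among the gene-richest arms. In between, the left and right arms gave 156 and 108 per 1000 genes on I, 148 and 164 on III, and 116 and 96.7 on IV. The left arm of II had 97.1, at 247 genes per Mb the densest in genes of all arms, and the left arm of V had 113. Every arm was thus below every centre, whose densities ran up to 285 per 1000 genes on II.

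**Figure D1:**
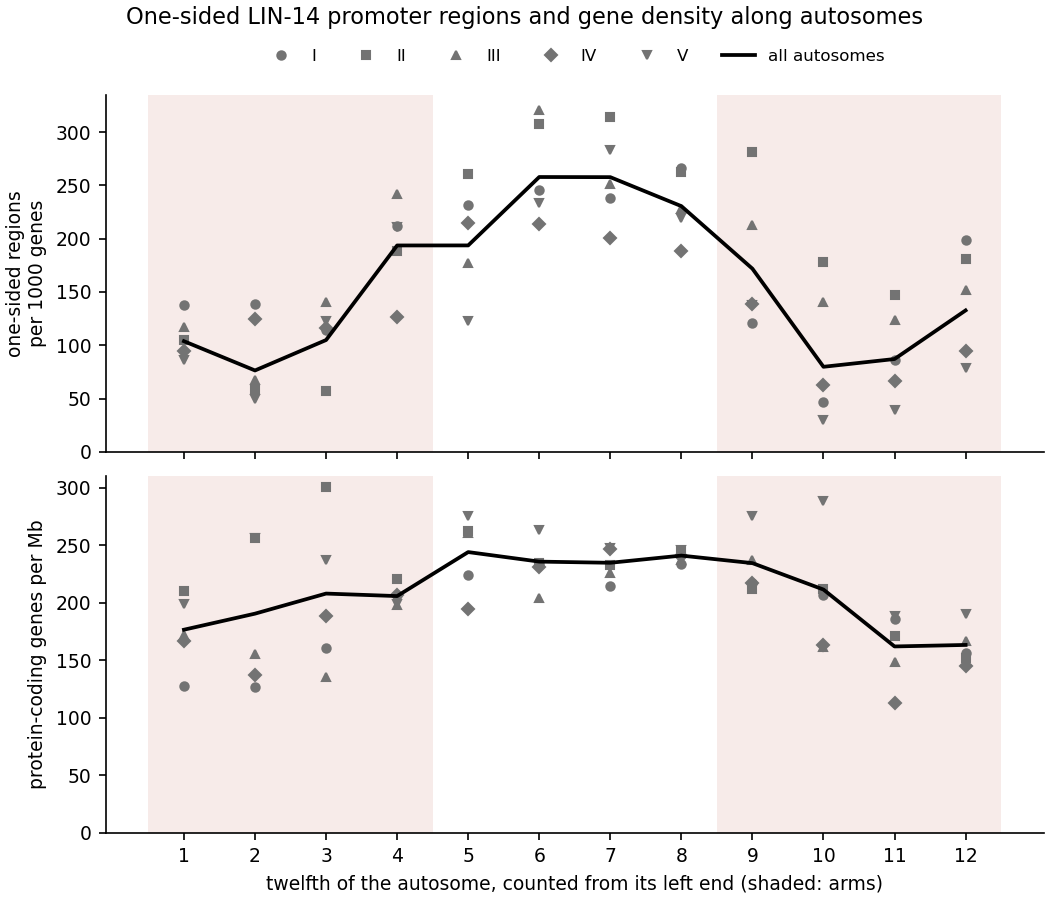
One-sided promoter regions per 1000 protein-coding genes (top) and protein-coding genes per Mb (bottom) in 12 bins of equal length along each autosome; grey symbols are single autosomes, the black line pools all 5, and the arms are shaded. Pooled density is lowest in bins 2 and 10 (76.3 and 79.8 per 1000 genes) and highest in bins 6 and 7 (258 in each), while gene density varies between 162 and 244 per Mb.

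Within the arms, density did not change evenly from the chromosome ends inwards. When each arm was cut into 4 sections of equal length, the section next to the centre held 551 arm promoter regions, 42.7% of all, at 182 per 1000 genes. The outermost section held 275, at 118 per 1000 genes, and the lowest value was in the section beside it, with 197 regions at 81.3 per 1000 genes. The remaining section had 266, at 92.2 per 1000 genes. In the plot of the 12 bins, bins 4 and 9, the innermost bins of the arms, had 194 and 172 per 1000 genes. Pooled density was level across the left border, with 194 in bin 5 as well, and fell at the right border, from 231 in bin 8. Larger steps lay inside the arms, from 105 in bin 3 to bin 4, and from bin 9 to 79.8 in bin 10. Median scores ran the other way in part. The innermost section, richest in regions, had the lowest median, 421 (replicates 245 and 188), and the sparsest section the highest, 529 (replicates 319 and 220). In replicate 2 the outermost section was higher still, with 234, against 273 in replicate 1 and 483 in the joint list.

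Although fewer, arm promoter regions scored somewhat higher than those of the centres. Their median score was 456, with quartiles of 256 and 832 and a range of 148 to 7747, against a median of 402 in the centres, with quartiles of 242 and 728. The ratio of medians was 1.14. Over regions matched in both replicate lists it was 1.13 in replicate 1 (265 against 234) and 1.13 in replicate 2 (201 against 178). The distributions overlapped almost entirely. At the upper end, 179 arm promoter regions (13.9%, 12.04 to 15.9%) ranked in the top 10% of all regions, against 153 in the centres (9.93%, 8.48 to 11.5%). The difference was not uniform over chromosomes. On IV the medians were 548 in arms and 434 in the centre, on II 421 and 351, on III 471 and 401, and on V 411 and 379. On I they were 475 and 483, and the replicates disagreed on the order there, with 280 and 273 in replicate 1 but 209 and 215 in replicate 2.

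**Figure D2:**
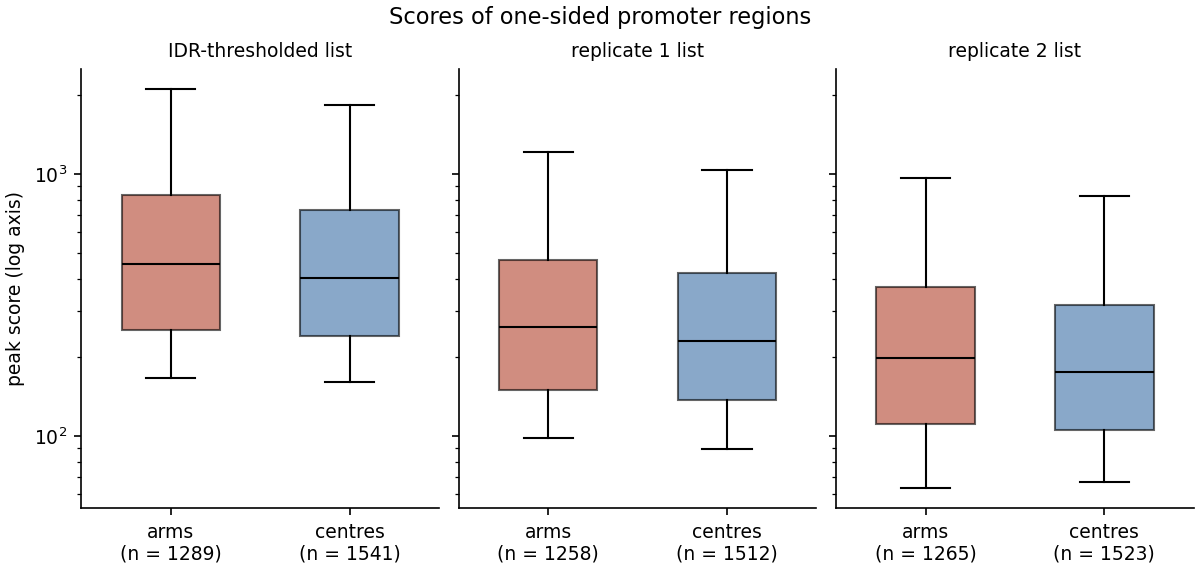
Peak scores (log axis) of one-sided promoter regions in arms and centres, from the IDR-thresholded list and from the matching peaks of each replicate list; boxes span the quartiles with the median as a line, and whiskers reach the 5% and 95% points. The arm medians are higher (456 against 402 in the IDR-thresholded list, 265 against 234 in replicate 1, 201 against 178 in replicate 2), with boxes that overlap. The replicate medians given here are over regions matched in both replicate lists, while each replicate box holds all regions matched in that list.

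Other kinds of region showed the same order. In windows of both strands the median score was 771 in arms and 575 in centres, and outside windows it was 353 in arms and 313 in centres. Arm promoter regions had a median width of 327 bp, against 315 bp in the centres. Of the arm promoter regions, 1234 (95.7%, 94.5 to 96.8%) had a summit within 100 bp in both replicate lists, against 96.95% in the centres. The list was derived from both replicates, so this share is no independent measure of agreement. Of the other 55, 24 were matched in replicate 1 only and 31 in replicate 2 only, and their scores were lower (median 293, highest 1354). Over the matched ones, the median log2 ratio of the replicate 1 score to the replicate 2 score was 0.37, with an SD over regions of 0.37.

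The genes beside the strongest arm promoter regions had varied roles. The region at rpl-3 (gene at chrIII:3867854-3869587, plus strand), a protein of the large ribosomal subunit, ranked 3 among all regions of the data set and had its summit at −272 bp. The one at cbp-1 (chrIII:9766509-9774825, plus strand), the CBP/p300 histone acetyltransferase, ranked 6 and lay further out, at −840 bp. A second, weaker region of cbp-1 at −100 bp scored 1133, with replicate scores of 687 and 449. The region at cdc-48.1 (chrII:10560036-10563407, minus strand), which encodes an AAA ATPase of the p97 type that extracts ubiquitylated proteins, lay at −158 bp. The region at hsp-1 (chrIV:17278959-17281330, plus strand), a constitutive Hsp70 chaperone, lay at −394 bp, and the one at cox-5A, a subunit of cytochrome c oxidase, at −280 bp.

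The top 20 also held regions at genes that act on RNA, chromatin or transcription. ntl-2, a subunit of the CCR4-NOT complex that shortens messenger RNA tails, had its summit at −432 bp. chd-7, a chromodomain helicase, had a region at −920 bp with a score of 4186 (replicates 2281 and 1923). met-1, a histone H3 lysine 36 methyltransferase, had one at −79 bp with 3969 (replicates 2255 and 1733). The summit at met-1 lies in an intron of a neighbouring gene. hlh-11, a basic helix-loop-helix factor, had one at −427 bp with 3795 (replicates 2051 and 1737). zip-2, a bZIP factor of the response to bacterial infection, had one at −218 bp with 3879 (replicates 2182 and 1710), inside an intron of its own longer transcript.

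Other genes of the top 20 had further roles. The chemoreceptor gene srh-2 had a region of rank 8 among arm promoter regions, with a score of 4510, described with its family below. otub-2, a deubiquitinase of the ovarian tumour family, had a region at −949 bp with a score of 4565 (replicates 2600 and 1968). egg-5, a pseudophosphatase of the passage from oocyte to embryo, had one at −557 bp with 4504 (replicates 2390 and 2143). scpl-3, of a small phosphatase family related to those that act on the RNA polymerase II tail, had one at −37 bp with 3577. One region lay at −60 bp of tub-2, a Tubby-related gene, and within the window of Y71G12A.5, with 3771 (replicates 2133 and 1643). Also in the top 20 were F48G7.4 at −191 bp, Y39E4B.6 at −78 bp (score 4175), eelo-2 at −223 bp (3975), F22F7.7 at −803 bp (3928) and W06H8.6 at −756 bp. The summit at F22F7.7 lies within that gene, and its position is relative to an internal transcript start. The lowest replicate scores among the 20 were those of scpl-3, 1958 in replicate 1 and 1620 in replicate 2.

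Each arm had at least one strong region. The highest in the left arms were those of otub-2 on I, ntl-2 on II, rpl-3 on III, a region shared by rps-28 and Y41D4B.4 on IV, and F48G7.4 on V. In the right arms they were Y18D10A.4 on I, cdc-48.1 on II, cbp-1 on III, hsp-1 on IV and unc-76 on V. The lowest of these 10 was the region at rps-28, a small ribosomal subunit gene, with a score of 2633 (replicates 1391 and 1247). The region at unc-76, a gene of axon outgrowth and fasciculation, scored 2937 (replicates 1557 and 1391), and that at Y18D10A.4, with its summit in a coding exon, 3065 (replicates 1670 and 1421).

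Most genes with an arm promoter region had 1, but 115 had 2 and 25 had 3 or more. The genes named next were chosen after these counts were seen. unc-73, a Trio-type guanine nucleotide exchange factor, and ret-1, the reticulon gene, had 6 each. The 6 at unc-73 scored between 222 and 1207, and those at ret-1 between 199 and 773, of which 2 had no match in replicate 2. kin-1, the catalytic subunit of protein kinase A, had 5 with scores from 308 to 1562, and par-1, a kinase of cell polarity, had 5 from 171 to 520. din-1, a corepressor that acts with the nuclear receptor DAF-12, had 4, of which 2 were strong: 2810 at −720 bp (replicates 1561 and 1266) and 2798 at 14 bp inside a transcript start (replicates 1724 and 1080). hlh-30, the TFEB factor of autophagy genes, and lit-1, a Nemo-like kinase of Wnt signalling, had 4 each. These genes have many annotated 5′ ends, 6 for din-1 and 12 for kin-1, and so more windows in which a region can fall.

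Chemoreceptor, F-box, C-type lectin, and MATH and BATH domain genes of the arms held few arm promoter regions. Of 965 chemoreceptor genes in the arms, 4 held one (0.415%, 0.113 to 1.06%), against 10.7% of all arm genes. The count was 11 with windows of 2000 bp upstream to 500 bp downstream and 2 with windows of 500 bp upstream to 100 bp downstream. All 4 were srh genes on V. srh-2 stood apart with a score of 4510 (replicates 2420 and 2115), in a 5′ UTR at 91 bp inside an internal transcript start. srh-76 had 873 (replicates 483 and 391), srh-17 had 651 (replicates 338 and 313), and srh-269 had 321 and a match in replicate 2 only (128). In the centres 5 of 311 chemoreceptor genes held one (1.61%, 0.524 to 3.71%), an interval that overlaps that of the arms.

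F-box genes, which encode substrate adaptors of ubiquitin ligases, held one in 9 of 297 cases (3.03%, 1.39 to 5.67%). The highest scores were those of fbxa-24, with 678 (replicates 413 and 295), and fbxc-19, with 598 (replicates 331 and 266). C-type lectin genes, many of which respond to microbes, held one in 4 of 201 cases (1.99%, 0.545 to 5.02%), with clec-140 highest at 1994 (replicates 1175 and 819). Among 66 MATH and BATH domain genes in the arms bath-40 alone held one (1.52%, 0.0384 to 8.16%), with 1194 (replicates 672 and 525), and 2 of 7 in the centres held one (28.6%, 3.67 to 71.0%). Only 8 F-box genes and 36 C-type lectin genes lay in the centres, and none of them held a one-sided region, which allows up to 36.9% and 9.74% by the upper interval bounds.

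These 4 families, grouped after their low counts were known, had 1529 genes in the arms and 362 in the centres, so leaving them out raises the arm share by construction. The values without them are a description. Of the remaining genes, 12.3% held a one-sided region in the arms (1124 of 9143, 11.6 to 13.0%) and 20.9% in the centres (1299 of 6208, 19.9 to 22.0%). The ratio of these shares was 0.588, against 0.538 with all genes. It was 0.540 on I, 0.626 on II, 0.691 on III, 0.577 on IV and 0.521 on V. On V, where the 4 families made up 26.2% of arm genes and 12.7% of centre genes, the ratio with all genes was 0.452. Genes known only by a sequence name held one in 8.14% of cases in arms and 15.5% in centres, and genes with a symbol in 12.8% of cases in arms and 23.2% in centres.

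**Figure D3:**
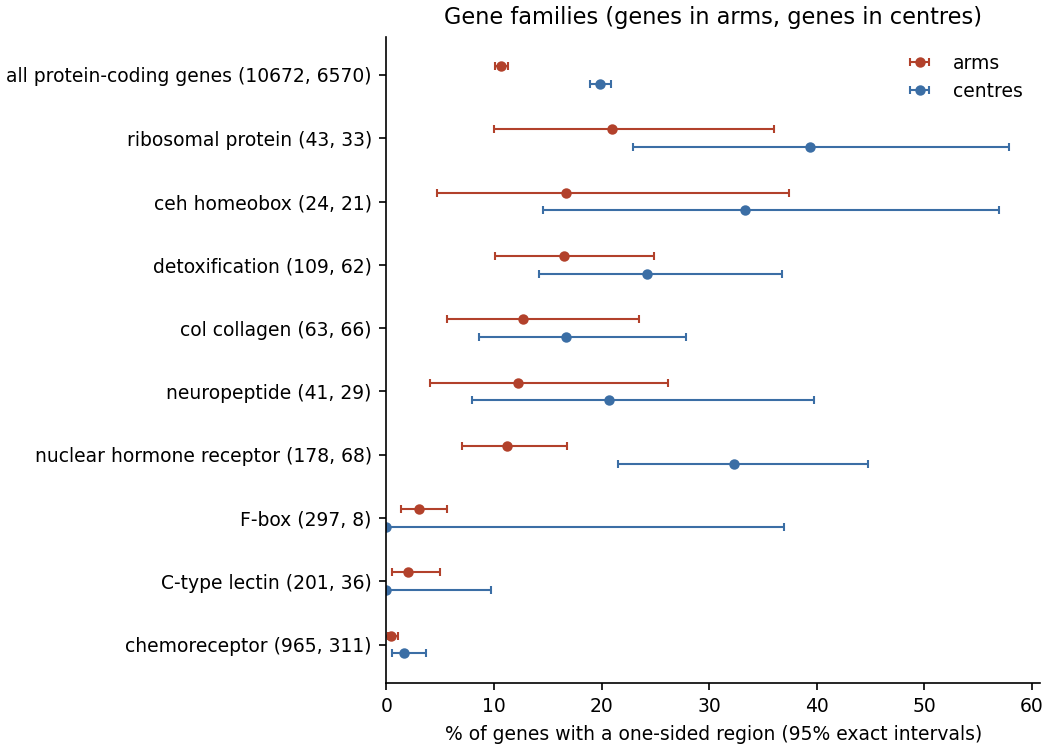
Share of genes with a one-sided promoter region in arms (upper point) and centres (lower point) by family, with 95% exact binomial intervals; the numbers of genes in arms and centres are in brackets. Chemoreceptor, C-type lectin and F-box genes of the arms sit at 0.415, 1.99 and 3.03%, below all arm genes at 10.7%.

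For the other families the shares of all genes, 10.7% in arms and 19.9% in centres, are the background, and a lower share in arms than in centres is there too. Nuclear hormone receptor genes form a family of transcription factors expanded in nematodes. Of 178 in the arms 20 held an arm promoter region (11.2%, 6.9998 to 16.8%), against 22 of 68 in the centres (32.4%, 21.5 to 44.8%), so their share was near that of all genes in the arms and above it in the centres. The strongest were nhr-58, with 3093 (replicates 1747 and 1351) at −49 bp, nhr-228, with 1989 (replicates 1111 and 872), and nhr-237, with 1795 (replicates 1089 and 706), all on the left arm of V. Detoxification genes of the ugt, cyp and gst types held one in 18 of 109 cases in arms (16.5%) and 15 of 62 in centres (24.2%). The glutathione transferase genes gst-5, with 1320 (replicates 759 and 562), and gst-20, with 1213 (replicates 683 and 537), were the highest.

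Ribosomal protein genes held one in 9 of 43 cases in arms (20.9%, 10.04 to 36.0%) and 13 of 33 in centres (39.4%, 22.9 to 57.9%). After rpl-3 and rps-28 came rpl-41.2, with 1816 (replicates 1027 and 800), and rps-24, with 1267 (replicates 724 and 545). Of the col cuticle collagens 8 of 63 in arms and 11 of 66 in centres held one, with col-103 highest in the arms at 1133 (replicates 579 and 558). Neuropeptide precursor genes held one in 5 of 41 cases in arms and 6 of 29 in centres, and their scores were low. The highest in arms were nlp-29, with 327 (replicates 160 and 171), and nlp-28, with 294 (replicates 169 and 116), both antimicrobial peptide genes of the epidermis.

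Small families gave few cases. Among ceh homeobox genes 4 of 24 in arms and 7 of 21 in centres held one, with ceh-83 highest in the arms at 749, matched in replicate 2 only (320). Without replicate 2 the count of ceh genes in the arms was 2. Ligand-gated channel genes held one in 2 of 33 cases in arms and 5 of 24 in centres. Of 12 Argonaute genes in the arms alg-2, which acts with microRNAs, held a region with a score of 936 (replicates 515 and 420), in an intron, and 1 of 9 in the centres held one. None of 22 insulin-like genes in the arms held one, which allows a share of up to 15.4%, and none of 15 in the centres.

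Arm promoter regions lay at much the same distance from 5′ ends as those of the centres. The median summit position was −251 bp in the arms (quartiles −576 and −111) and −264 bp in the centres. Summits upstream of the 5′ end made up 92.8% in arms and 92.2% in centres, and 48.4% in arms and 47.0% in centres lay within the first 300 bp upstream. The rule takes 1000 bp upstream and only 200 bp downstream, so a majority upstream is favoured by the choice of regions. The largest group in the arms, 453 regions or 35.1%, lay between −200 and −1 bp. Scores were highest a little further out, with a median of 578 between −400 and −201 bp, and lowest downstream of the 5′ end (306). The centres had the same order, with 494 between −400 and −201 bp and 303 downstream.

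**Figure D4:**
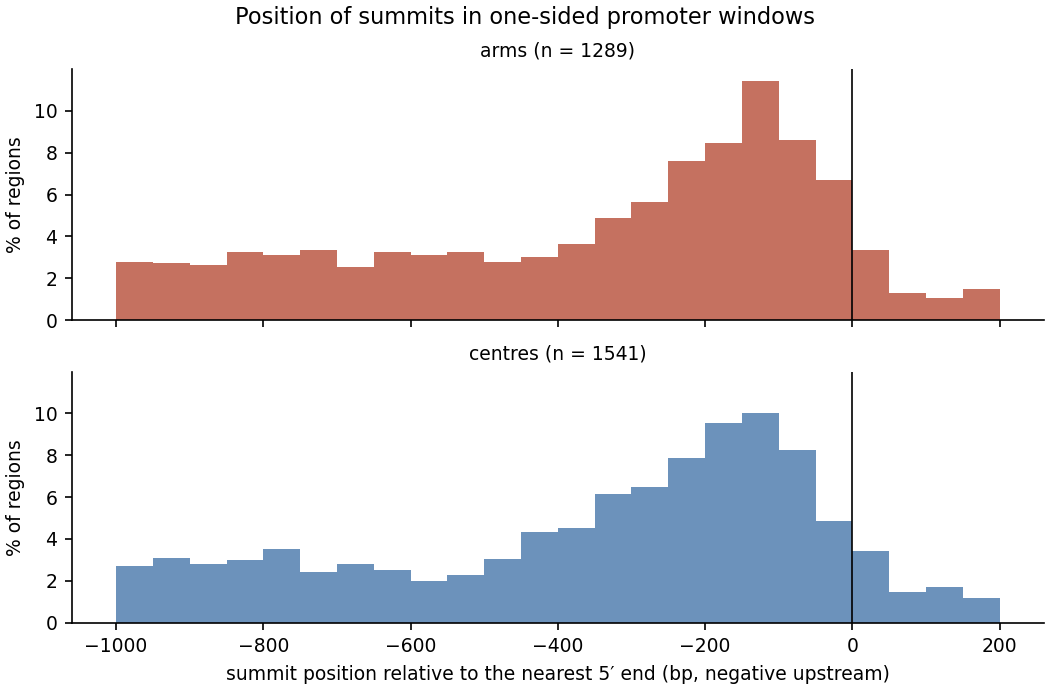
Position of summits relative to the nearest 5′ end (bp, negative upstream) for arm promoter regions (top) and those of the centres (bottom), as a percentage of regions in 50 bp steps. Both distributions peak close to the 5′ end, with medians of −251 and −264 bp, and have a flat tail out to −1000 bp.

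Summits fell mostly between genes. The rule takes 1000 bp upstream and only 200 bp downstream, so this majority is favoured by the choice of regions. The make-up of the windows themselves is not given here for comparison. In the arms 837 (64.9%, 62.3 to 67.5%) lay outside protein-coding genes, 336 (26.1%) in introns, 75 (5.82%) in 5′ UTRs, 26 (2.02%) in coding exons and 15 (1.16%) in 3′ UTRs. The shares in the centres were 64.1% outside genes, 26.1% in introns and 2.14% in coding exons. Arm promoter regions outside genes had a median score of 505 (replicates 300.2 and 220.3), those in introns 399 (replicates 227 and 175) and those in coding exons 254 (replicates 162 and 103). Among all arm promoter regions, 378 summits (29.3%) lay within the gene whose window they fell in, which is possible at internal or alternative transcript starts, and 74 (5.74%) within another gene. Genes annotated as ncRNA overlapped 72 summits in arms (5.59%) and 124 in centres (8.05%), and tRNA genes overlapped 6 in arms and 5 in centres.

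Arm genes with an arm promoter region had more room upstream than other arm genes. The median distance to the next gene on that side was 1864 bp, against 900 bp for the 8978 arm genes with no region in their window. In the centres it was 1714 bp for genes with a one-sided region and 649 bp for those with none. Arm genes with a region were also longer, at a median of 3259 bp against 1915 bp for arm genes with none. More than one annotated 5′ end was present in 49.2% of them, against 23.3% of arm genes with none. The centres showed the same, with median lengths of 2803.5 and 1749 bp. There, 50.1% of genes with a one-sided region had more than one 5′ end, against 22.7% of those with none. The rule leaves out sequence shared with the window of a gene on the other strand, and a gene with several 5′ ends or a long upstream gap offers more one-sided window. The part of this in the differences was not tested. The upstream neighbour lay in tandem, on the same strand, for 59.4% of arm genes with a region and 56.4% of those with none.

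Summits of arm promoter regions were richer in G and C than the sequence around them. The median GC content within 50 bp of the summit was 44.6%, against 34.7% in windows of the same length 300 bp to either side. In the centres it was 42.6% at summits and 33.7% beside them. The higher scoring 50% of arm promoter regions had 47.5% and the lower scoring 50% had 42.6%. The GC content moves with the frequency of the sequences below, and its part in them was not tested.

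The 8-letter word GAGACGCA, shown in capitals in the windows of F48G7.4 and sti-1 above, occurred on either strand within 50 bp of 172 summits in the arms (13.3%, 11.5 to 15.3%). It was present in 8 of the 1289 windows on the left and 8 on the right (0.621% each) and in 0.975% of windows of the same length at the median summit distance of all 10672 arm promoters. In the centres it was at 133 summits (8.63%, 7.28 to 10.1%), and on X at 4.02% (2.87 to 5.45%). The share was 18.3% among the higher scoring 50% of arm promoter regions and 8.37% among the lower. Arm promoter regions with the word had a median score of 660 (replicates 386 and 295), those without it 425 (replicates 245 and 189). Since the word was chosen from the arm summits, its share there and its gaps to the centres and X are a description only.

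The GA repeat GAGAGA showed a similar pattern. It was at 417 summits in the arms (32.4%, 29.8 to 35.0%), against 6.36% and 5.59% of the windows beside them and 5.51% of arm promoters, and at 26.5% of summits in the centres (24.3 to 28.8%). Its share was 38.5% in the higher scoring and 26.2% in the lower scoring 50%. Both sequences were present at 98 summits, with a median score of 795 (replicates 455 and 349), and neither was at 798 summits, with a median of 396 (replicates 227 and 175). The 6-letter word with the largest excess over the windows beside the summit was CGTCTC, at 24.0% of summits in the arms against 2.64% and 2.87% beside them, and at 16.1% of summits in the centres. CGTCTC was ranked first on the arm summits, so its gap to the centres is a description too. Many frequent 6-letter words overlap each other and the 8-letter word, so they do not count as separate results.

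**Figure D5:**
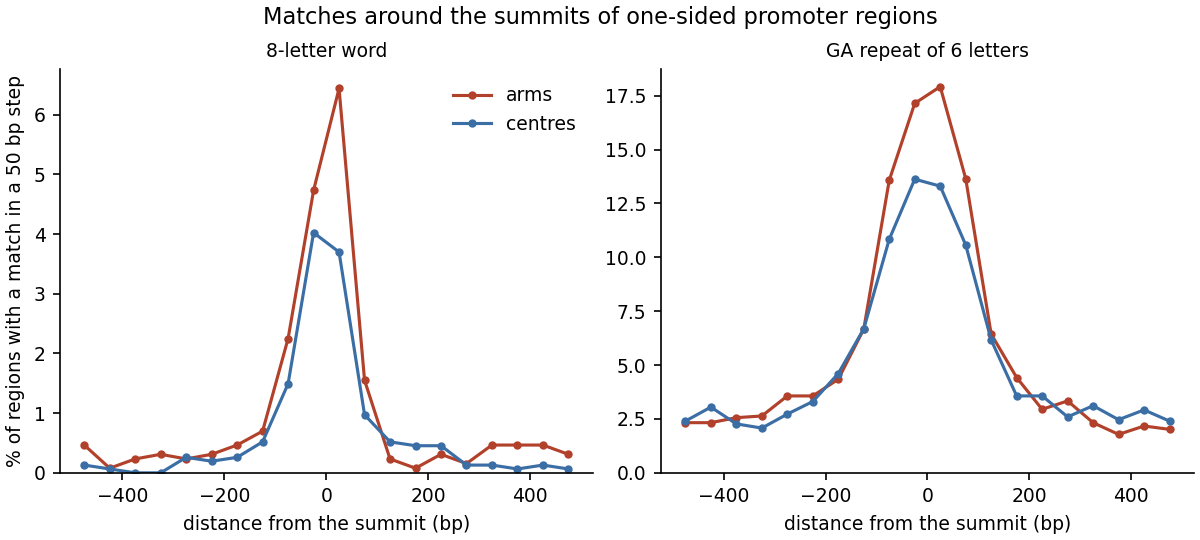
Share of one-sided promoter regions with a match to the 8-letter word (left) or the 6-letter GA repeat (right) in 50 bp steps by distance from the summit, in arms and centres. Both sequences peak at the summit, higher in arms than in centres, and fall to a low level about 200 bp away. The 8-letter word was chosen from the arm summits, so its gap between arms and centres is a description only.

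At summits, both sequences had a preferred direction relative to the gene. Direction is given for summits only, and whether other promoter sequence has the same preference was not tested. Read on the strand of the gene, TGCGTCTC alone was present at 121 summits in the arms and GAGACGCA alone at 50, so the first made up 70.8% (63.3 to 77.5%). In the centres it made up 61.1% (52.2 to 69.5%), an interval that overlaps that of the arms. TCTCTC alone was present at 276 summits in the arms and GAGAGA alone at 125 (68.8%, 64.0 to 73.3%), and the share in the centres was 68.4%. The pyrimidine-rich form thus lay more often on the coding strand of the gene, as in the windows of F48G7.4, W06H8.6, tbc-14 and sti-1, while gmeb-1 shows the opposite direction.

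The 5-letter core described for LIN-14 in the literature (CGGAA or CGGAG or TGGAA or TGGAG, on either strand) was hardly more frequent at summits than beside them. It was present in 59.0% of summit windows in the arms, against 56.2% and 57.1% of the windows beside them and 55.1% of arm promoters. The summits of the centres gave 57.0%, and the higher scoring 50% of arm promoter regions 58.9%. Words this short were thus present in most windows of this length, wherever they lay.

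Of the other sequences searched on both strands, some were more frequent at summits and some less. The E-box CACGTG was at 5.04% of summits in the arms, against 0.853% and 2.64% beside them, and at 5.52% in the centres. The C-rich CCGCCC was at 6.52% in the arms, against 1.40% and 2.09% beside them. CAGCTG was at 4.27%, against 1.40% and 1.55%. TATAAA was at 4.34% in the arms, against 10.008% and 10.9% beside them, and the acceptor-like TTTCAG at 4.4996%, against 21.8% and 20.1%. TTTTTT was at 27.9%, against 43.2% and 45.7%. The GATA words AGATAA and TGATAA were at 14.5%, against 16.1% and 13.9%, and in the arms they were less frequent among the higher scoring 50% (10.1%) than among the lower (18.9%). TGACTCA and TGACGTCA were rare, at 1.09% and 1.32% of summits in the arms.

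At both limits of the promoter window, the nearest region left out scored higher than the last one taken. The region furthest upstream, at −1000 bp of col-80, scored 557 (replicates 285 and 270), and the nearest one left out, at −1003 bp of K11D2.4, scored 2177 (replicates 1196 and 995). Downstream, the last one taken lay 199 bp inside F53E4.1, with 356 (replicates 161 and 184), and the nearest left out 208 bp inside nhr-88, with 724 (replicates 374 and 365). At the border between arm and centre, the nearest region inside was that of cls-3, 2172 bp away with a score of 523, and the nearest outside that of mab-21, 5991 bp away with 566. The lowest score among arm promoter regions was 148, at glc-3 (replicates 61.0 and 86.2).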

How the data were processed

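The deposited peak lists of LIN-14 ChIP-seq are on the ce11 build, the same assembly as WBcel235. Per README texts that came with the deposited files, 1 list was called on each replicate, another on both together, each against a control file, and a further list, thresholded by irreproducible discovery rate (IDR), was derived from them. Neither aligner nor peak caller nor threshold is stated in these sources. The score of a deposited peak is the strength from the authors' caller, whose scale is not stated and differs between lists. Scores were therefore used to rank and describe peaks within a list. The 1 exception is the log2 ratio of matched replicate scores, which includes any difference in scale between the lists. The deposited summit is an offset in bp, another value of the authors. Replicate 1 had 25357 peaks, replicate 2 had 27170, and the IDR-thresholded list 11507, merged into 11115 regions where they overlapped, with the summit of the highest score. Read depth is unknown.

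Genes came from Ensembl release 115 (19973 protein-coding genes) and sequence from RefSeq. A replicate's score for a region is that of its nearest summit within 100 bp. Ratios of counts carry 95% exact conditional binomial intervals and shares 95% Clopper-Pearson intervals. With 1 group of 2 samples no comparison between conditions could be tested, and no p-values are given. Genes with their nearest 5′ ends in a window are assigned to it by annotation alone, and 31 arm promoter regions lie in windows of 2 genes. Masked bases are the lower case letters of the RefSeq sequence. Genes named are the top 20, up to 4 of each family, the highest of each arm and those at the limits of the rule, and others are said to be chosen after their values were seen. Families were assigned by symbol. The regions and gene families were chosen with earlier results of these data known. Counting steps were tested on simulated data. Python 3.11.15, numpy 2.4.6, pandas 2.3.3, scipy 1.17.1 and matplotlib 3.10.9 were used. Alternatives covered the window, the 5′ ends, the arm border, merging, a higher score limit, the peak list and each replicate alone.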

Additional observations from a re-analysis of the deposited data

How the results depend on the processing

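Alternatives were run for counts, density ratios, the ratio of median scores, shares, families, replicate matching and sequence shares. Only the ratios of arms over centres have a direction, and none of them changed it. The counts, shares and matches were recomputed for the arms alone, so they cannot show a change of direction. Of 63 values for the main results, 28 stayed close and 35 moved by more than the spread between replicates, the counting interval or 1.5 times. Scores per chromosome, sections of the arms, distances, gaps, GC content, repeats and word direction were not recomputed under other settings. The number of arm promoter regions was 738 with the outer 25% at each end as arms, 777 among the higher scoring 50% of regions and 2119 in the list called on both replicates together, and 1303 to 1347 with a replicate left out. It was 967 with a window of 500 bp upstream to 100 bp downstream and 1849 with 2000 bp upstream to 500 bp downstream. With only the outermost 5′ end of each gene it was 1006. The counts for these windows and 5′ ends were taken as close because they lay within 1.5 times. With a window of 500 bp upstream to 100 bp downstream, arms over centres was 0.399 per Mb, 0.491 per gene, 0.475 per window base and 1.12 for the median score, and arm promoter regions were 23.6% of arm regions. With 2000 bp upstream to 500 bp downstream, the values were 0.462, 0.569 and 0.518 for the densities in that order, and 45.1% of arm regions. With the outer 25% as arms they were 0.353, 0.443 and 0.414, and 1.21 for the median score. Among the higher scoring 50% of regions they were 0.460, 0.567 and 0.538, with 1.06 for the median score and 34.8% of arm regions. In the list called on both replicates together they were 0.403, 0.496 and 0.471, with 1.12 and 28.2%. With only the outermost 5′ end of each gene, the density per window base was 0.502, the median score ratio 1.18 and the share of arm regions 24.6%. Leaving out a replicate gave 0.423 to 0.435 per Mb, 0.520 to 0.535 per gene, 0.494 to 0.508 per window base, 1.13 to 1.14 for the median score, 31.7 to 32.1% of arm regions and 92 to 96 genes of the families by symbol, against 85 in the joint list. Matching summits within 50 bp left 88.3% matched in both replicates, and windows of 100 bp to either side of the summit raised the share with the LIN-14 core to 81.5%. Of 72 further values for single families and sequences, 19 moved beyond their counting interval or 1.5 times.

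No paired analysis was possible because the study has 1 group and no result comes from a test between groups. The scores are not read counts and read depth is unknown, so weak regions cannot be told apart from sites below the threshold, and a lower number of regions in the arms is one of regions above that threshold. Intervals treat neighbouring regions as independent.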
